A study of Homo sapiens with 9 samples.

Results

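The MAF family of transcription factors was represented by 5 genes of the 28216 in the count table, taken by symbol: MAF, MAFA, MAFF, MAFG and MAFK. The family was singled out because MAF was far higher in androgen-treated than in vehicle-treated LNCaP cells, so for that comparison the values of the members are a description and are given without a p-value. RNA was sequenced from 3 groups of 3 libraries, all of prostate cancer epithelial lines labelled as wild type. PC3 cells were grown in F12K medium and left untreated. LNCaP cells (clone FCG) were first kept 24 h without phenol red in RPMI whose serum was charcoal-stripped, which removes steroids, and then given 10 nM dihydrotestosterone (DHT) or the 0.01% ethanol vehicle for 48 h. The labels name DHT, whereas the main text of the study names the synthetic androgen R1881 for its androgen experiments. Both lines came from metastases and each is a single established line, so a difference between PC3 and LNCaP cells cannot be told apart from a difference in medium and treatment.

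MAF proteins bind DNA through a basic leucine zipper. The large members, among them MAF and MAFA, carry a domain that activates transcription and act mostly in differentiation: MAF in lens, T cells and macrophages and as an oncogene of myeloma, MAFA in the insulin-producing beta cell. The small members MAFF, MAFG and MAFK lack that domain. They pair with each other, which represses transcription, or with the CNC proteins (NFE2, NRF1, NRF2, NRF3) and the BACH proteins on antioxidant response elements, where the partner decides whether the target gene is switched on or off.

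On GRCh38, in the GENCODE 44 annotation, MAF (ENSG00000178573.7) lies at chr16:79585843-79600737 on the minus strand and encodes at most 403 residues. MAFA (ENSG00000182759.4), the other large member, encodes 353 residues. The small members encode at most 164 residues for MAFF (ENSG00000185022.12, chr22:38200767-38216507, plus strand), 162 for MAFG (ENSG00000197063.11, chr17:81918270-81927735, minus strand) and 156 for MAFK (ENSG00000198517.10, chr7:1530702-1543043, plus strand). The coding sequences of the large members are thus the longest of the 5.

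The RefSeq promoter table (GRCh38.p14) matched 3 of the members, with 2 transcription starts for MAFF, and did not match MAFA or MAFK. The 150 bases before each start are printed below, because MAF and MAFF, the members with the largest difference between androgen and vehicle, both held a cyclic AMP response element, the palindrome TGACGTCA. In capitals are this element and the TATA box TATAAA. The windows are chr16:79600738-79600887 on the minus strand for MAF, chr22:38201844-38201993 and chr22:38202870-38203019 on the plus strand for MAFF, and chr17:81927736-81927885 on the minus strand for MAFG.
MAF: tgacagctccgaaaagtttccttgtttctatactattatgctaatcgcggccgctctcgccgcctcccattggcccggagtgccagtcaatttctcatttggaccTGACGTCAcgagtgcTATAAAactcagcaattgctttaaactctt
MAFF, first start: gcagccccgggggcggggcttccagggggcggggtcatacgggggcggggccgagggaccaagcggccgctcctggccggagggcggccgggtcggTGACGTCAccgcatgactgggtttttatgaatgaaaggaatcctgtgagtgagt
MAFF, second start: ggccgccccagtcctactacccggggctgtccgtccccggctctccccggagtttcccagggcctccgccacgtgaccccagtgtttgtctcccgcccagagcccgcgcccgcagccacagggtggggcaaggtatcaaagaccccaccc
MAFG: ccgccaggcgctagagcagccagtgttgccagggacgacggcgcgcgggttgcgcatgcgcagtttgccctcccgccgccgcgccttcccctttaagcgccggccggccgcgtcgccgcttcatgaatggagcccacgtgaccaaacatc

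The cyclic AMP response element began 45 bases before the start of MAF and 54 bases before the first start of MAFF, and 1.85% of the 35097 promoters in the table held one on either strand (windows from 250 bases before to 50 after the start). The TATA box of MAF began 30 bases before the start, and 11.5% of promoters held one. The MAF window had a GC content of 47.3%, below the median of 60.0% over the 35097 windows, whereas the MAFF windows (69.3% and 71.3%) and the MAFG window (70.0%) were above it. Both MAFF windows and the MAFG window held the E-box CACGTG in the stretch searched, as did 7.25% of promoters, and the first MAFF window held the antioxidant response element core TGACNNNGC, as did 13.3%. None of the 4 held the androgen receptor half-site AGAACA (14.8% of promoters), the AP-1 site TGACTCA (4.95%) or the MAF half-site TGCTGAC (4.19%), searched on both strands. The motifs were chosen after the sequences had been seen and are a description of letters, not of bound sites.

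Libraries held 17397706 to 25640325 counts on genes, with a median of 21434125. A count of 0 allows up to 3 counts, which is 0.118 to 0.160 CPM across libraries (CPM being the count scaled to a common library size), and takes in no error other than that of counting. The line labels were checked with markers: 8 markers of androgen-responsive luminal cells, such as KLK3, summed to 75.7 to 85.5 CPM in PC3, 14390 to 14980 in androgen-treated and 3160 to 3536 in vehicle-treated LNCaP libraries, and KLK2 had 0 counts in PC3. The 8 PC3 markers, such as vimentin, summed to 4357 to 4910 CPM in PC3 and to 16.5 to 47.0 CPM in LNCaP libraries. Leukocytes and stromal cells also express MAF. The 8 leukocyte markers summed to 0.585 to 0.837 CPM in PC3, 1.44 to 1.77 with androgen and 0.157 to 0.397 with vehicle. PTPRC and CD3E were at 0 counts in all LNCaP libraries, whereas CD4 had 20 to 25 counts with androgen against 1 to 3 with vehicle and ITGAM 5 to 6 against 0. The 7 stromal markers summed to 21.5 to 29.2 CPM with androgen against 3.31 to 3.57 with vehicle and 5.51 to 9.40 in PC3, of which ACTA2 gave 24.0 ± 3.89 CPM (SD, n = 3) with androgen, while COL1A2 was at 0 in LNCaP libraries. The part of other cells in the results was not tested beyond these values.

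MAF was the member with the widest spread of levels, near absent in PC3 and abundant in LNCaP cells given androgen. The 3 androgen-treated libraries held 6984, 7138 and 6568 counts of MAF. The 3 vehicle-treated libraries held 83, 83 and 79 counts. PC3 libraries held 0, 0 and 1 counts, all within the limit of a count of 0. The 3 groups did not overlap, and their order was androgen-treated LNCaP, vehicle-treated LNCaP, PC3. The mean level was 333 ± 14.8 CPM (SD, n = 3) with androgen and 4.23 ± 0.272 CPM with vehicle. The difference was 6.27 on the log2 scale (SE 0.07), a 77.2-fold higher level. In bulk RNA, fewer expressing cells and less RNA per cell cannot be told apart. Among the genes above 3 CPM in every LNCaP library, MAF had the largest log2 difference, ahead of UGT2B11 (5.25), which glucuronidates androgens, and FKBP5 (4.90), a chaperone of steroid receptors. Over all 11697 genes tested it ranked 20th by size of the increase, and each gene ahead of it was at 3 CPM or less in at least 1 LNCaP library.

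MAFF, a small member induced by stress in several cell types, was highest in PC3. PC3 libraries held 1198, 901 and 986 counts, or 47.8, 40.5 and 38.8 CPM. Androgen-treated libraries held 177, 156 and 117 counts, or 8.18, 7.65 and 5.81 CPM, and vehicle-treated libraries held 20, 23 and 17 counts, or 1.05, 1.23 and 0.844 CPM. The 3 groups lay apart in the order PC3, androgen-treated LNCaP, vehicle-treated LNCaP, and the lowest androgen-treated library was above every vehicle-treated library. MAFF was higher with androgen than with vehicle by 2.77 on the log2 scale (SE 0.20), or 6.80-fold. The PC3 marker sum in LNCaP libraries was 0.360% to 1.03% of its PC3 mean, and MAFF was at 13.7% to 19.3% of its PC3 mean with androgen and at 1.99% to 2.90% with vehicle. Of those markers, vimentin (VIM) was itself higher with androgen, at 106 to 272 counts against 23 to 75 (log2 difference 1.86). It met the filter through the androgen-treated libraries, its vehicle mean being 2.25 CPM, so it is given without a p-value. ITGA3 and EPHA2, also tested, differed by 0.29 and -0.11 on the log2 scale and were not called. The part of carried-over RNA in the MAFF level was not tested.

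MAFK, the other small member with a larger difference between the LNCaP groups, held 1759, 1689 and 1584 counts with androgen (81.3, 82.8 and 78.7 CPM) and 726, 605 and 715 with vehicle (37.99, 32.3 and 35.5 CPM). PC3 libraries held 2619, 2001 and 2372 counts, with a mean of 95.9 ± 7.56 CPM (SD, n = 3). All androgen-treated libraries were above all vehicle-treated ones and below all PC3 libraries. MAFK was 2.25-fold higher with androgen, 1.17 on the log2 scale (SE 0.05).

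MAFG had the smallest difference between androgen and vehicle among the members past the filter. PC3 libraries held 1877, 1426 and 2466 counts (74.8, 64.1 and 97.1 CPM), androgen-treated libraries 1035, 950 and 927 (47.8, 46.6 and 46.0 CPM) and vehicle-treated libraries 651, 640 and 706 (34.1, 34.1 and 35.0 CPM). Again the 3 groups did not overlap, although the PC3 libraries spread more widely, with an SD of 16.8 CPM against 0.920 and 0.540 CPM in the LNCaP groups. The difference between androgen and vehicle was 0.41 on the log2 scale (SE 0.05), or 1.33-fold.

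MAFA, at chr8:143419182-143430732 on the minus strand, stayed below the filter on low counts in every comparison (more than 3 CPM in at least 3 libraries). It had 16, 16 and 26 counts in PC3, 4, 7 and 4 with androgen and 2, 2 and 0 with vehicle. The PC3 mean was 0.794 ± 0.203 CPM (SD, n = 3) and the androgen mean 0.242 ± 0.0877 CPM. Groups did not overlap here either, but with vehicle no library was above the limit of 3 counts. The androgen mean was 1.56-fold and the PC3 mean 5.11-fold that limit. Since the limit is that of a count of 0 and vehicle-treated libraries held up to 2 counts, these are not bounds on the difference.

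**Figure D1:**
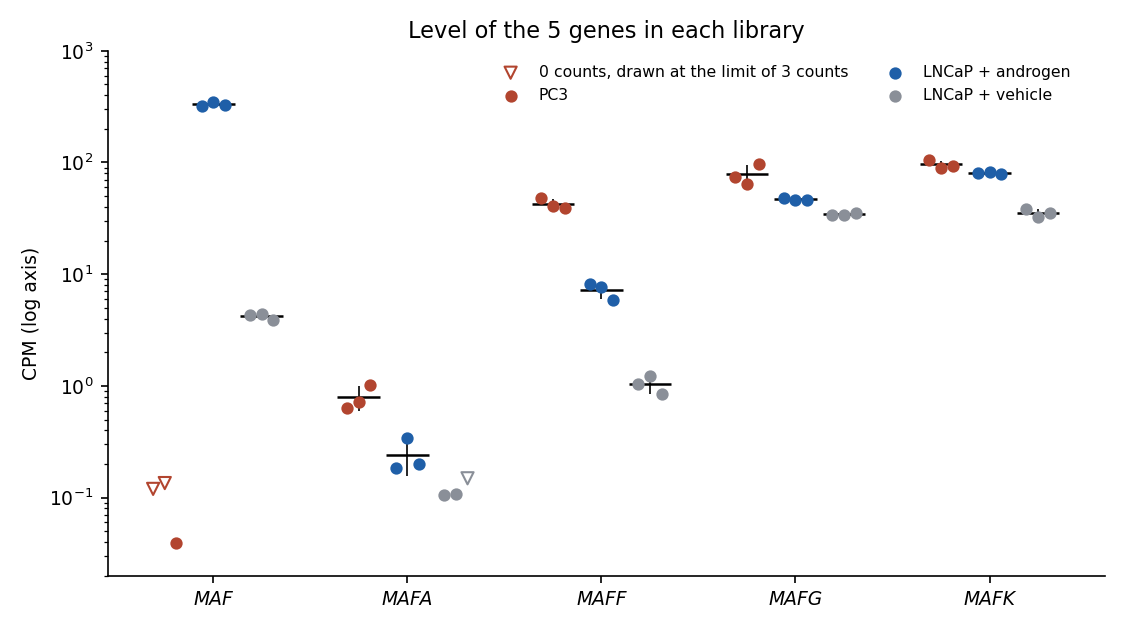
Level of each of the 5 genes in each library, in CPM on a log axis, with points for libraries, a horizontal bar for the group mean and a vertical bar for the SD (n = 3), and open triangles where a library had 0 counts. MAF lies at 333 CPM with androgen and 4.23 CPM with vehicle, while MAFF, MAFG and MAFK are highest in PC3.

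In the comparison of androgen with vehicle, 4 of the 5 members passed the filter, and 3 of them (MAF, MAFF and MAFK) met the rule for a call (adjusted p under 0.05 and at least a 2-fold change in edgeR's quasi-likelihood test), as did 14.0% of the 11697 genes tested (6.54% higher and 7.49% lower with androgen). All 5 members had groups that did not overlap, as did 76.8% of genes. The family was chosen on this comparison, and MAFF passed the filter through the androgen-treated libraries alone, so nothing is read from these counts.

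PC3 was then compared with each LNCaP group. These comparisons share libraries with each other and with the androgen comparison, so they are not independent, and their p-values measure only the spread between samples of a group, which may be technical since the labels do not say that libraries came from separate cultures, although the study speaks of independent experiments for its data in general and of a batch term for these. MAF is given as a lower bound without a test. Its PC3 level was at least 2681-fold lower than in androgen-treated and at least 34.1-fold lower than in vehicle-treated LNCaP cells, taking 3 counts for each PC3 library. This is the limit of a count of 0, and PC3 replicate 3 held 1 count, so the bounds are approximate.

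The small members were all higher in PC3 than in vehicle-treated LNCaP cells. MAFF was higher by 5.33 on the log2 scale (SE 0.16), or 40.1-fold. MAFF passed the filter here through PC3 alone, so a difference was built into its entry and this value is given without a p-value. Without a filter, the difference was 5.33 (adjusted p = 2.09e-09, edgeR's quasi-likelihood test). MAFK was higher by 1.42 (SE 0.09, adjusted p = 1.94e-06, edgeR) and MAFG by 1.17 (SE 0.15, adjusted p = 0.000132, edgeR). All 3 met the rule for a call, where 43.2% of the 12686 genes tested did (22.2% higher and 21.0% lower in PC3) and 83.4% had an adjusted p under 0.05, and the count is not read further because of the entry of MAFF. The call of MAFG rested on PC3 replicate 3, the highest library: without it the difference was 0.97 on the log2 scale, below a 2-fold change, with an adjusted p of 1.91e-06 (edgeR).

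Against androgen-treated LNCaP cells the differences of the small members were smaller and 1 of 3 was called, where 46.0% of the 12541 genes tested were called (24.0% higher and 22.1% lower in PC3). MAFF was higher in PC3 by 2.54 on the log2 scale (SE 0.15, adjusted p = 1.25e-06, edgeR's quasi-likelihood test), or 5.81-fold. MAFG was higher by 0.74 (SE 0.14, adjusted p = 0.00163, edgeR) and MAFK by 0.23 (SE 0.07, adjusted p = 0.0171, edgeR), both under a 2-fold change. An adjusted p under 0.05 alone was reached by 84.0% of genes. Under other settings the adjusted p of MAFK lay between 0.00682 and 0.0696, the latter when PC3 replicate 1 was left out. MAFA, which was not tested, was at a 3.28-fold higher mean CPM in PC3. Groups did not overlap for any of the 5 members in either PC3 comparison, as for 86.2% of genes against androgen-treated and 85.5% against vehicle-treated LNCaP cells.

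**Figure D2:**
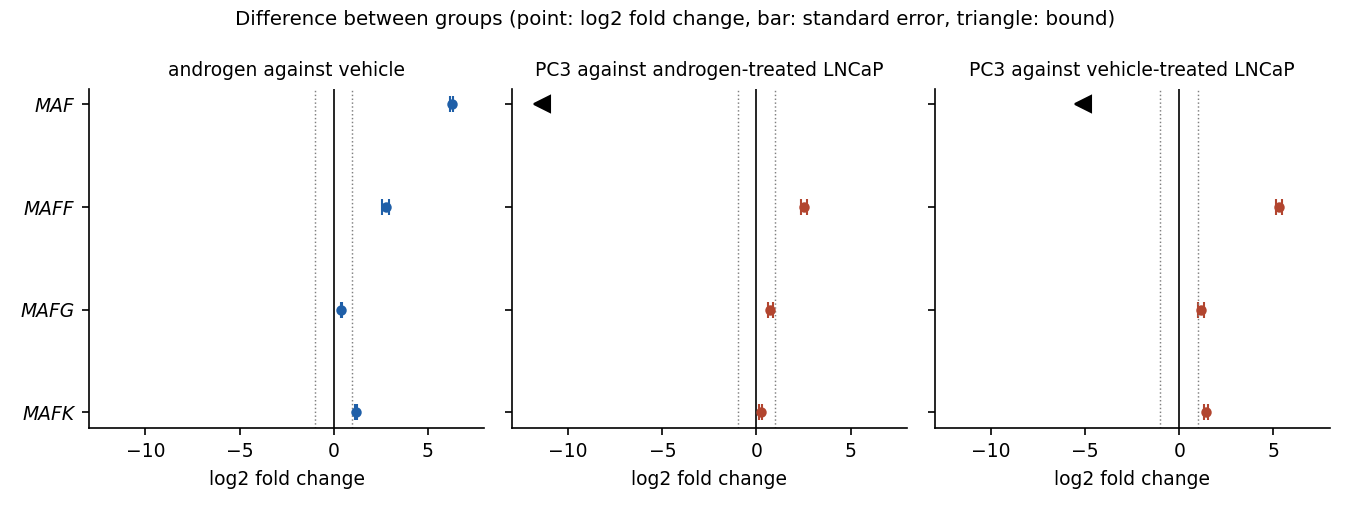
Log2 fold change of the 4 members that passed the filter in each comparison, with bars for the standard error, dotted lines at a 2-fold change, and triangles for MAF where PC3 had at most 1 count and only a lower bound can be given. MAF lies at 6.27 in the androgen comparison and the small members lie right of 0 in all 3 panels.

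Levels of different genes were compared per kilobase of exon. In androgen-treated LNCaP cells MAF was the most abundant member, at 47.6 ± 2.11 CPM per kb (SD, n = 3), or 62.6% ± 0.959 of the sum over the 5 genes. MAFK followed at 18.1 ± 0.468 CPM per kb and MAFG at 8.93 ± 0.176, with MAFF at 1.29 ± 0.222. With vehicle, MAF took 3.97% ± 0.339 of the sum, and MAFK (51.6% ± 2.14) and MAFG (43.1% ± 1.82) made up nearly all of it. In PC3 the sum was held by MAFK (48.5% ± 3.30), MAFG (33.7% ± 5.15) and MAFF (17.1% ± 1.98), and MAF gave 0.00401%.

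The order of MAFK and MAFG per length is the least firm of these. It turned in PC3 and in vehicle-treated cells when reads were counted without regard to strand, with MAFG at 40.4% and MAFK at 38.02% in PC3 and MAFG at 52.1% and MAFK at 40.6% with vehicle. The place of MAF at the top with androgen did not turn with either alternative, its share being 59.5% with the length of the longest transcript and 68.2% without strand. The sum of the 3 small members per length was 44.02 ± 3.85 CPM per kb in PC3, 28.3 ± 0.780 with androgen and 14.6 ± 0.628 with vehicle, and the sum of all 5 was 44.3 ± 3.87, 76.0 ± 2.56 and 15.3 ± 0.613 CPM per kb.

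**Figure D3:**
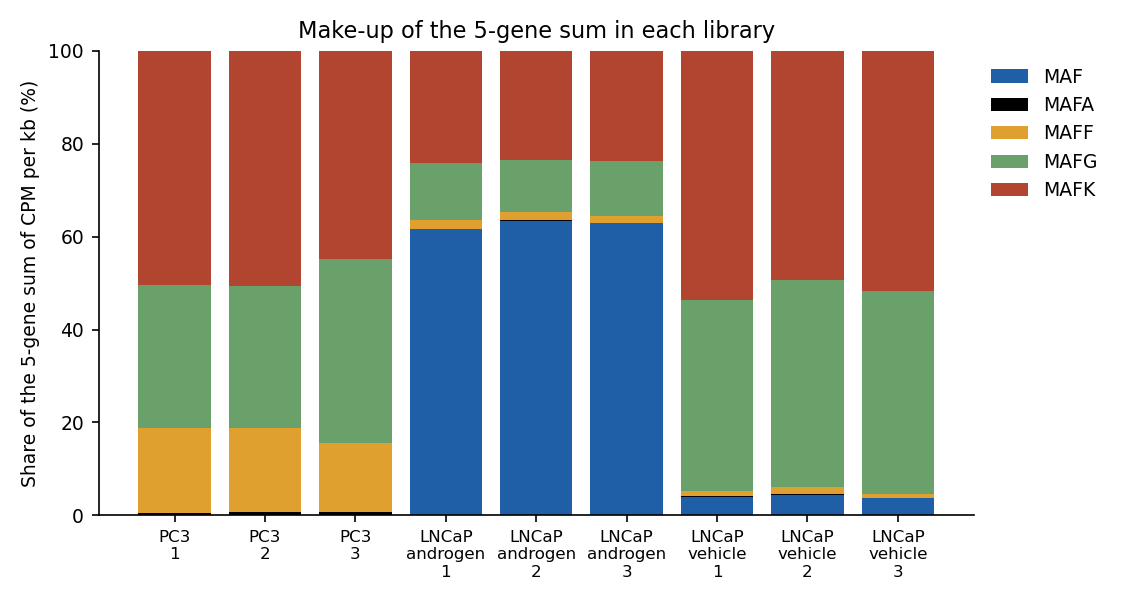
Share of each gene in the sum of CPM per kb of exon over the 5 members, in percent, 1 bar per library. MAF takes 61.5% to 63.4% in the androgen-treated libraries and at most 4.33% in the others, where MAFK and MAFG dominate.

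Exons of 3 members overlap other genes, which bears on their counts. MAFK shares 809 bp (18.1% of its exon length) with TMEM184A on the opposite strand, and MAFF shares 326 bp (5.81%) with PLA2G6 on the opposite strand. MAFG shares 105 bp (2.00%) with SIRT7 on its own strand, and 35 of its 5239 stretches of 74 nt (0.668%) also occur in SIRT7 transcripts. MAFG also shares 224 bp (4.27%) with the long non-coding RNA gene ENSG00000264769 on the opposite strand, which is absent from the count table. No stretch of MAF, MAFA, MAFF or MAFK occurred in a transcript of another gene read in the same direction. The opposite direction was not searched.

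The reads on the opposite strand of MAFF were few but weighed most where MAFF was low. They numbered 15 to 27 in PC3, 12 to 15 with androgen and 9 to 18 with vehicle, or 2.03%, 8.54% and 38.1% of all reads on the gene. PLA2G6 itself was at 43.1 ± 2.53 CPM with androgen and 43.1 ± 3.02 CPM with vehicle (SD, n = 3), and at 6.08 ± 1.70 CPM in PC3. Counted without strand, the MAFF difference between androgen and vehicle was 2.23 on the log2 scale instead of 2.77.

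For MAFK the opposite-strand reads numbered 154 to 206 in PC3, 244 to 252 with androgen and 225 to 265 with vehicle, or 7.08%, 12.9% and 26.5% of all reads on the gene, while TMEM184A was at 45.3, 118 and 88.6 CPM in the same order. Unstranded counts of MAFK were 65.7%, 65.5% and 65.4% of the stranded counts in the 3 groups, so this proportion was alike in all of them.

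**Figure D4:**
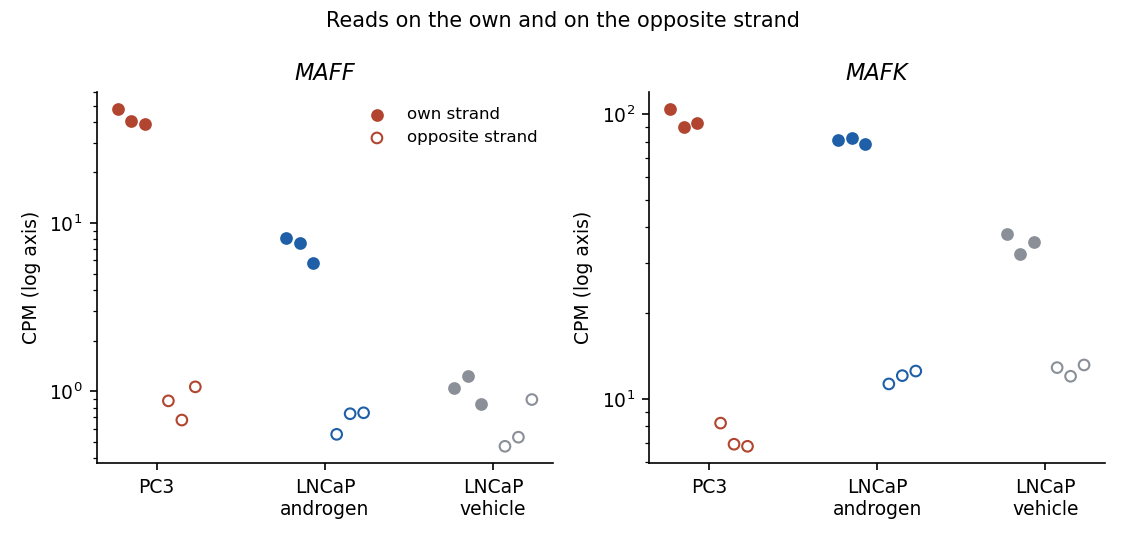
Reads on the own strand (filled) and on the opposite strand (open) of MAFF and MAFK in each library, in CPM on log axes. In vehicle-treated LNCaP cells the opposite-strand reads of MAFF reach the range of its own reads, at 38.1% of the total, and in PC3 they are 2.03%.

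The genome around the members was examined through the 2 nearest protein-coding genes on each side of each. Of these 20 genes, 12 passed the filter in the androgen comparison and 1 was called, where 14.0% of all genes were. This was the chromodomain gene CDYL2, which lies 997170 bp from MAF. It was at 195 ± 9.72 CPM with androgen, 38.9 ± 1.85 with vehicle and 12.9 ± 1.06 in PC3 (SD, n = 3), a difference of 2.30 on the log2 scale between androgen and vehicle (SE 0.05, adjusted p = 5.07e-13, edgeR). WWOX, a tumour suppressor gene at the fragile site 373176 bp on the other side of MAF, was lower with androgen by a log2 difference of -0.59 (SE 0.10, adjusted p = 0.000148, edgeR), under a 2-fold change. Of the 13 neighbours tested against PC3, 3 were called higher and 3 lower in PC3 than in androgen-treated LNCaP cells, and 3 higher and 2 lower than in vehicle-treated cells, near the 46.0% and 43.2% of all genes called. Higher in both were TOP1MT, ZC3H3 and GSDMD, all beside MAFA (GSDMD passed the filter through PC3 alone), and lower in both were CDYL2 and PCYT2, the latter beside MAFG, with PYCR1, also beside MAFG, lower against androgen-treated cells alone in these calls. The median log2 difference over the neighbours was 0.07, 0.29 and 0.28 in the 3 comparisons, where that of all genes tested was -0.01, 0.04 and 0.03.

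Of the long non-coding transcripts listed beside the members, only MAFG-DT passed the filter. MAFA-AS1 had 10 to 24 counts in PC3, 1 to 6 with androgen and 0 to 2 with vehicle. MAFTRR, a repressor of MAF in T helper cells, had 0 counts in PC3, 3 to 13 with androgen and 1 to 5 with vehicle, and LINC01229 had at most 1. MAFG-DT, which is transcribed away from MAFG, was at 8.52 ± 0.288, 8.32 ± 0.806 and 9.76 ± 1.01 CPM (SD, n = 3) in PC3, androgen-treated and vehicle-treated cells and was not called in any of the 3 comparisons.

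None of the partners of the small MAF proteins was called between the LNCaP groups, where 14.0% of all genes tested were. The 4 tested are too few to set against that share. Of 6 CNC and BACH genes, 4 passed the filter in the androgen comparison, and all 4 had an adjusted p under 0.05 (3 higher and 1 lower with androgen, edgeR) at less than a 2-fold change, as 74.9% of all genes tested had such a p (37.1% higher and 37.8% lower), with a median log2 difference of 0.18. NFE2L1 (NRF1), a regulator of the proteasome genes, was at 476 ± 26.6 CPM with androgen and 305 ± 1.37 with vehicle (SD, n = 3), a log2 difference of 0.61 (adjusted p = 1.52e-08, edgeR). NFE2L2 (NRF2), the main activator of the antioxidant genes, differed by 0.13 (adjusted p = 0.0484, edgeR) and its rival BACH1 by 0.23 (adjusted p = 0.00397, edgeR).

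Between the lines, 2 of the 5 partners tested were called higher in PC3 in both comparisons and none lower. Of all genes tested, 24.0% and 22.2% were called higher, and 22.1% and 21.0% lower. NFE2L3 (NRF3) was at 119 ± 16.1 CPM in PC3, 18.9 ± 1.35 with androgen and 26.6 ± 2.60 with vehicle (SD, n = 3), higher in PC3 by 2.64 against androgen-treated cells (adjusted p = 2.74e-07, edgeR) and by 2.14 against vehicle-treated cells (adjusted p = 1.08e-06, edgeR). BACH2, a repressor known from B cells, had 76 to 86 counts in PC3, 1 to 5 with androgen and 1 to 2 with vehicle, and passed the filter through PC3 alone, so its call was largely fixed by the filter. The medians of the list were 0.69 and 0.88 on the log2 scale, against 0.04 and 0.03 over all genes tested. Of 5 genes that control NRF2 and BACH1 protein (KEAP1, CUL3, RBX1, BTRC, FBXO22), none was called in the androgen comparison or against vehicle-treated cells. Of all genes tested, 14.0% and 43.2% were called in these comparisons. At an adjusted p under 0.05 (edgeR), 1 of the 5 differed with androgen, where 74.9% of all genes tested did. Against vehicle-treated cells 3 were higher and 2 lower in PC3 at such a p, where 83.4% of all genes reached it. Against androgen-treated cells 2 were higher and 2 lower, where 84.0% of all genes reached it. There RBX1, a subunit of cullin ubiquitin ligases, was called lower in PC3 (log2 difference -1.28, adjusted p = 4.92e-06, edgeR), as were 22.1% of all genes.

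Genes with antioxidant response elements differed in both directions. All 15 of the list reported here were tested. With androgen 10 were higher and 3 lower at an adjusted p under 0.05 (edgeR), where 37.1% and 37.8% of all genes were. Of these only HMOX1, which breaks down haem, also passed a 2-fold change, where 6.54% of all genes were called higher and 7.49% lower. HMOX1 was at 17.4 ± 3.78 CPM against 7.85 ± 1.16 with vehicle (SD, n = 3), higher by 1.12 on the log2 scale (adjusted p = 1.33e-05, edgeR). In PC3 against androgen-treated cells, 3 of the 15 were called higher and 3 lower, where 24.0% and 22.1% of all genes were. Higher were GCLC, the rate-limiting enzyme of glutathione synthesis (1.29), the ferritin heavy chain FTH1 (1.79) and OSGIN1 (1.11), and lower were the sulfiredoxin SRXN1 (-1.17), TALDO1 (-1.20) and the biliverdin reductase BLVRB (-2.54), all on the log2 scale.

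Against vehicle-treated cells, 5 of the 15 were called higher in PC3, where 22.2% of all genes were. These were GCLC, FTH1 and OSGIN1, with TXNRD1 at 1.05 and FTL at 1.02 on the log2 scale. BLVRB was called lower (-1.54), as were 21.0% of all genes. FTH1 varied most among PC3 libraries, with 55651 to 139824 counts. The median log2 difference of the list was 0.29 for androgen against vehicle, -0.25 for PC3 against androgen-treated and -0.06 for PC3 against vehicle-treated cells.

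Most genes known as MAF targets in myeloma and T cells were too low to be tested. Of 7 listed, only NUAK1, a kinase related to AMPK, passed the filter, and it was at 5.79 ± 0.928 CPM with androgen, 11.1 ± 1.42 with vehicle and 30.5 ± 5.67 in PC3 (SD, n = 3). NUAK1 was lower with androgen by a log2 difference of -0.97 (SE 0.14, adjusted p = 2.51e-05, edgeR), just under a 2-fold change, and higher in PC3 by 2.38 and 1.43 against androgen-treated and vehicle-treated cells (adjusted p = 5.06e-06 and 6.19e-05, edgeR). CCND2, the cyclin raised by MAF in myeloma, had at most 4 counts in any library, the integrin gene ITGB7 2 to 25, and IL10 and IL21 had 0.

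Of 6 kinases and ubiquitin enzymes that act on large MAF proteins, 3 were higher with androgen at an adjusted p under 0.05 (edgeR). Of all genes tested, 37.1% were. None of the 6 passed a 2-fold change, where 14.0% of all genes tested were called. In PC3, 1 of the 6 was called higher and 1 lower against androgen-treated cells, where 24.0% and 22.1% of all genes were. Against vehicle-treated cells 1 was called higher, where 22.2% of all genes were. HERC4, a ubiquitin ligase, was higher in PC3 by 1.02 and 1.91 on the log2 scale against androgen-treated and vehicle-treated cells (adjusted p = 4.16e-05 and 1.77e-06, edgeR), and the deubiquitinase USP5 was lower against androgen-treated cells (-1.20, adjusted p = 1.63e-05, edgeR). GSK3B, a kinase that phosphorylates large MAF proteins, was at 122 ± 7.38, 149 ± 6.20 and 141 ± 4.51 CPM (SD, n = 3) in PC3, androgen-treated and vehicle-treated cells and was not called.

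The AP-1 genes, whose proteins are related leucine zippers, included a few calls. Of 12 listed, 6 were tested with androgen and 2 called higher, where 6.54% of all genes tested were called higher, and 2 of 6 is too few to set against that share: ATF3, a stress-induced member, was at 71.2 ± 9.20 CPM against 21.3 ± 1.26 (SD, n = 3), higher by 1.71 on the log2 scale (adjusted p = 7.73e-10, edgeR), and JUNB was higher by 1.06 (adjusted p = 1.96e-07, edgeR). In PC3, FOSL1 was at 812 ± 19.2 CPM while LNCaP libraries held 0 to 96 counts of it, and it passed the filter through PC3 alone, so its calls there are not read further. On the log2 scale, JUND (-1.12) and ATF3 (-1.72) were called lower in PC3 than in androgen-treated cells, as were 22.1% of all genes. JUNB (1.29) and FOSL2 (1.42) were called higher than in vehicle-treated cells, as were 22.2% of all genes. The median over the AP-1 genes tested was 0.59, 0.37 and 0.79 in the 3 comparisons, against -0.01, 0.04 and 0.03 over all genes. The PC3 medians include FOSL1.

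**Figure D5:**
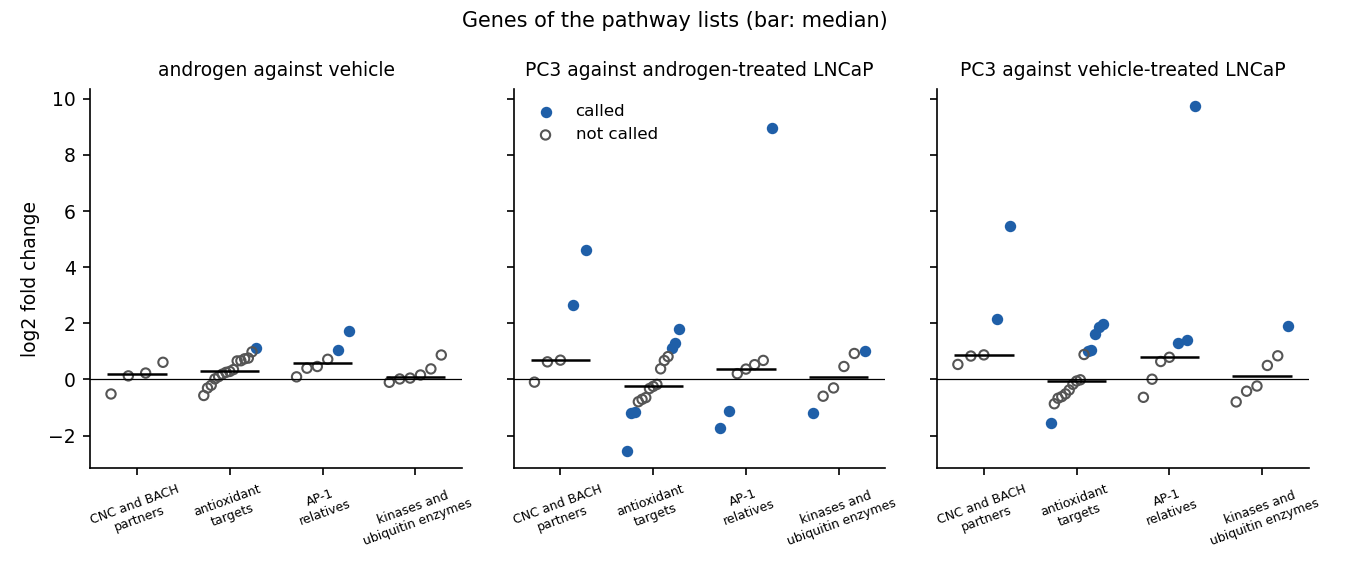
Log2 fold change of the genes of 4 lists that passed the filter, in each comparison, with filled points for genes called (adjusted p under 0.05 and at least a 2-fold change), open points for the others and a bar for the median. The antioxidant genes lie on both sides of 0 in all panels, with medians of 0.29, -0.25 and -0.06, and the point of BACH2 rests on at most 5 counts in LNCaP libraries.

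Finally, the genes whose levels ran most like each member were sought over the 9 libraries, by the root mean square distance of centred log2 CPM among 12843 genes. Because the libraries fall into 3 groups, this likeness mostly describes the order and size of 3 group means. Closest to MAF were the pseudogene ZNF812P (distance 0.50), the glucuronosyltransferases UGT2B11 (0.56) and UGT2B28 (0.76), ADAM7 (0.91) and the sialyltransferase ST6GALNAC1 (1.07). UGT2B11, for example, was at 430 CPM with androgen, 11.03 with vehicle and 0.0830 in PC3. UGT2B11 and UGT2B28 belong to a family of near-identical genes, so their counts are uncertain.

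Closest to MAFF were the myosin light chain gene MYL9 (0.17), SERPIND1 (0.30), the epithelial transcription factor KLF5 (0.31), the potassium channel gene KCNMA1 (0.33) and SOX9 (0.34), with KLF5 at 222 CPM in PC3, 32.8 with androgen and 7.01 with vehicle. Closest to MAFG were GCC1 (0.049), LPIN2 (0.049), RETREG2 (0.054), YIPF3 (0.077) and the lysosomal regulator TFE3 (0.081), and closest to MAFK were TFPT (0.085), RIPK4 (0.094), the tetraspanin CD151 (0.098), GNA12 (0.12) and ZCCHC9 (0.13). The small distances for MAFG and MAFK go with their narrow range of levels. When Pearson's correlation of log2 CPM was used in place of the distance, 1 of the 5 genes closest to MAF, 1 for MAFF, 3 for MAFG and 0 for MAFK were among the first 5 again.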

How the data were processed

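Poly(A) RNA of 9 libraries was sequenced. Reads were trimmed by the authors, aligned to GRCh38 with STAR, cleared of duplicates by their molecular identifiers (UMI-tools) and then aligned once more. The submitters' processing notes list cutadapt 4.1, STAR 2.7.7a and UMI-tools 1.1.2, and the annotation they counted on is not given in the sources used here. The authors deposited counts, whole numbers of reads per gene symbol and library with no normalization, and all 253944 values equalled those that STAR gave per library for the forward strand. 0 columns were left out.

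Genes with more than 3 CPM in at least 3 libraries of a comparison were kept. A separate fit of the 6 libraries concerned, without covariates, was made for every comparison, using TMM factors and the quasi-likelihood F test of edgeR 4.0.16 in R 4.3.3, with Benjamini-Hochberg adjustment over every gene that entered the test. Calls needed an adjusted p under 0.05 together with a change of 2-fold or more, as in the study. The study's batch term was left out because the batches are not named. Standard errors are the log2 fold change divided by the square root of F. CPM of single genes use TMM factors over all 9 libraries, with prior count 2 where logged. Lengths and locations come from GENCODE 44 and promoter sequences from RefSeq (GRCh38.p14). The edgeR step was tested on simulated data. Alternatives included DESeq2 1.42.0.

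The members, the gene lists and the tests were chosen with earlier results of these data known. Named were the members, list genes called in at least 1 comparison, up to 3 further genes of a list by mean CPM, the 5 genes closest to each member and the nearest 2 protein-coding genes on each side. MAFTRR, LINC01229, IL10, IL21 and the single markers were named after their values were seen. Other MAF family genes are not analysed here, and 1 gene of the antioxidant list is not reported here and was left out of its counts and medians. Replicate numbers from the labels were checked as pairs by correlating deviations from group means over 12843 genes. Same-numbered androgen and vehicle libraries correlated at 0.53, 0.31 and 0.20, and differently numbered ones at -0.38 to 0.22, the highest above the lowest same-numbered value. Since every same-numbered pair was above 0.1, the numbers were taken to pair the LNCaP libraries. This bar does not separate them fully, as differently numbered pairs at 0.22 and 0.13 were also above it. No such pairing was seen with PC3 (-0.09 to 0.03). The main fit leaves the pairing out.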

Additional observations from a re-analysis of the deposited data

Results flagged for a closer look

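Reads on the strand opposite to MAF were outside the main measurement, which counts the strand of the gene. They averaged 1.53 CPM in the androgen-treated libraries (16 to 42 counts), while the vehicle-treated controls held 0 to 1 counts and PC3 held 0. As a share of all reads on the gene they were 0.457% with androgen and 0.407% with vehicle. The vehicle share rests on 0 to 1 counts per library, too few to compare the 2 shares. Within the androgen-treated libraries they numbered 37, 16 and 42 beside 6984, 7138 and 6568 counts of MAF. Their source was not tested.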

How the results depend on the processing

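The 166 alternative values for the members were judged by 2 rules. Small members in the PC3 comparisons counted as the same when their call was unchanged, whatever the shift in size. MAF, and all members in the androgen comparison, had to stay within the spread between replicates. By these rules 1 lost its call and 2 moved. Under the first rule MAFF in PC3 against vehicle-treated cells counted as the same, although it fell from 5.33 to 4.70 with unstranded counts. The call of MAFG in PC3 against vehicle-treated cells was lost without PC3 replicate 3 (0.97 on the log2 scale, range 0.97 to 1.30 over single libraries left out). MAFF in the androgen comparison moved to 2.23 with unstranded counts, and the log2 bound on MAF in PC3 against androgen-treated cells to 11.45 without PC3 replicate 2 (range 11.35 to 11.45, 11.39 with all). For MAFF, opposite-strand reads enter that count by construction, and for the others the cause was not tested. MAFK in PC3 against androgen-treated cells, never called, was not under an adjusted p of 0.05 in 3 alternatives. With no filter on low counts, 2941, 9147 and 8713 genes were called in place of 1641, 5773 and 5485 for androgen against vehicle, PC3 against androgen-treated and PC3 against vehicle-treated cells, more genes being tested. With the replicate number as a block, taken to pair the LNCaP libraries, 1638, 5756 and 5495 genes were called and no member's call changed. Of 75 alternative shares per length, 20 moved by more than their SD. MAFA was limited by depth, at no more than 26 counts in a library.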
